A study of Mus musculus with 130 samples.

Results

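The 6 liver genes Hsd3b5, Elovl3, Slco1a1, Cyp4a12a, Cyp7b1 and Selenbp2 are described here across 2 experiments on dietary iron in male mice. They were taken by name, because earlier results of these data had shown them low in iron-loaded livers. Their change between diets is therefore a description, and no test result is read from it. They are 6 of the 35274 genes listed in the diet experiment and 6 of the 35711 listed in the strain panel, and all 6 passed the filter on low counts in both. The working name of the set calls them STAT5-dependent. STAT5 activity was not measured in these libraries, and only messenger RNA levels can be set beside that name.

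In the diet experiment, C57BL/6J males received chow, a diet with 50 ppm iron, a diet with 500 ppm iron, a diet with 2% carbonyl iron (20000 ppm), or 2% carbonyl iron with cellulose, with 3 mice on each. The labels name cellulose as the fibre source of the last diet and give no fibre source for the others. In the panel, males of 114 strains ate chow for 4 weeks and then 2% carbonyl iron for 6 weeks. The panel has 56 BXD strains (from C57BL/6J and DBA/2J), 20 AXB/BXA strains (from A/J and C57BL/6J), 4 BXH strains, 3 CXB strains and 31 other inbred strains, with 1 mouse of each except 129X1/SvJ, which has 2. No panel mouse had a diet other than 2% iron, so the panel holds no iron contrast, and ages are not given in the sources used here. RNA was prepared from a piece of a large lobe, which mixes hepatocytes with other cells. In such bulk RNA, fewer cells of a type and less RNA per cell cannot be told apart.

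Most of these genes belong to the male-biased programme of the rodent liver. Growth hormone, which males release in pulses, binds its receptor on hepatocytes, activates the kinase JAK2 and leads to phosphorylation of the transcription factor STAT5B, which raises many genes that are higher in males. SOCS2 and CISH are feedback inhibitors that STAT5 itself induces. BCL6, a repressor found more in male liver, and CUX2, a repressor found more in female liver, act on overlapping sets of sex-biased genes.

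Hsd3b5 (ENSMUSG00000038092, chr3:98618634-98630252, minus strand, GRCm38) encodes a keto-steroid reductase of the 3-beta-hydroxysteroid dehydrogenase family. Cyp7b1 (ENSMUSG00000039519, chr3:18071950-18243338, minus strand) encodes the oxysterol 7-alpha-hydroxylase of the alternative pathway of bile acid synthesis. Cyp4a12a (ENSMUSG00000066071, chr4:115299046-115332815, plus strand) encodes a fatty acid hydroxylase that acts on arachidonic acid. Elovl3 (ENSMUSG00000038754, chr19:46131897-46135694, plus strand) encodes an elongase of long-chain fatty acids. Slco1a1 (ENSMUSG00000041698, chr6:141907282-141946962, minus strand) encodes an organic anion transporter of the sinusoidal membrane. Selenbp2 (ENSMUSG00000068877, chr3:94693556-94704413, plus strand) encodes a selenium-binding protein, and Selenbp1, on the same chromosome, is a close copy. All 6 are protein-coding in the GENCODE M21 annotation, whose coordinates are used here.

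For 2 of these genes the sequence itself limits the measurement. The coding sequence of Cyp4a12a matched that of Cyp4a12b at 98.6% of aligned positions, with an identical run of 342 bases, and Selenbp2 matched Selenbp1 at 98.7%. Of all 31-base words in their transcripts, 62.2% of those of Cyp4a12a were also found in Cyp4a12b and 59.3% of those of Selenbp2 in Selenbp1, while Elovl3 and Cyp7b1 shared none with any other gene. Hsd3b5 shared 34.1% of its words, mostly with Gm10681 (25.6%), and Slco1a1 shared 4.02%. The 120-base stretch of each coding pair that holds the most differences is printed here, with the differing bases in capitals. It spans coding bases 435 to 554 of Cyp4a12a and Cyp4a12b and 288 to 407 of Selenbp2 and Selenbp1, counted from the first base of the start codon.
Cyp4a12a: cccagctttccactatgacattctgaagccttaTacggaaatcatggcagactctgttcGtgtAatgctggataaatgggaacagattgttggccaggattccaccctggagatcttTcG
Cyp4a12b: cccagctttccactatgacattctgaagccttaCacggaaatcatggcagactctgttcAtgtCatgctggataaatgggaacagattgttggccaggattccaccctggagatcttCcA
Selenbp2 coding: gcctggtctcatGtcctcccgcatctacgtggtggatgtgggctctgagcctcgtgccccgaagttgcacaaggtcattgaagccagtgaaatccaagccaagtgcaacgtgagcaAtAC
Selenbp1 coding: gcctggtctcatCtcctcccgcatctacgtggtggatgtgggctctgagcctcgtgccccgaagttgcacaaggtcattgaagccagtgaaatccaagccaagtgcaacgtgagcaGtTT
Even there only 5 and 4 of the 120 bases differ, so the levels of Cyp4a12a and Selenbp2 depend on how the estimation software divided reads between the copies and are uncertain to that extent.

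The windows before the transcription starts were searched for TTCNNNGAA, the inverted repeat bound by STAT5, which reads the same on both strands. Promoters of 3 of the 6 genes were matched in the RefSeq table (GRCm38.p6): Hsd3b5 at chr3:98645535-98645784 (minus), Slco1a1 at chr6:141946963-141947212 (minus) and Selenbp2 at chr3:94693323-94693572 (plus). The RefSeq start of Hsd3b5 lies upstream of the GENCODE gene given above. Each window has 250 bases, and the motif was found in none of the 3, against 7.02% of the 32851 promoters in the table. At so low a share, none of 3 is the likely outcome for any genes, so nothing is read from it. In the same search Cish and Igf1 had 0 motifs, and the windows of Bcl6 had 1 and 3. Hsd3b5 and Slco1a1 are printed in lower case because there is no motif to mark. Selenbp2 is set beside Selenbp1 (chr3:94932833-94933082, plus), and capitals mark the letters that differ in their alignment.
Hsd3b5: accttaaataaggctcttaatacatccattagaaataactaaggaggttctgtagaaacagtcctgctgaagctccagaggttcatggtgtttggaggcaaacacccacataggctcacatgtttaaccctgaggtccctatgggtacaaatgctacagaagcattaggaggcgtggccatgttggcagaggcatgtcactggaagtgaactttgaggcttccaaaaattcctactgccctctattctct
Slco1a1: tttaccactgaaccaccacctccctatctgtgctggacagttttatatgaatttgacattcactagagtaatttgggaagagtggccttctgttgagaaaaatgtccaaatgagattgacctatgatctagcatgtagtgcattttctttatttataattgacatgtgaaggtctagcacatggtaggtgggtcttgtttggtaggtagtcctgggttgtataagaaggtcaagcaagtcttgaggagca
Selenbp2: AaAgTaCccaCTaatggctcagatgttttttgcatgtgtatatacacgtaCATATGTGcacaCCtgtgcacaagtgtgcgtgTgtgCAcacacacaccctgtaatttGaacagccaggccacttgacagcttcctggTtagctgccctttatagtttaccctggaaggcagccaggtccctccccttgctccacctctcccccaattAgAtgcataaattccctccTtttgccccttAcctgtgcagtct
Selenbp1: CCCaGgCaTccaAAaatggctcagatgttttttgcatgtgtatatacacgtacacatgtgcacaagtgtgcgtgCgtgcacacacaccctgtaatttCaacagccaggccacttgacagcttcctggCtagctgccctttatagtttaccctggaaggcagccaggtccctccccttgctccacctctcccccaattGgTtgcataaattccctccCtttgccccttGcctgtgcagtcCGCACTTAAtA
The alignment of the Selenbp pair has 225 identical, 13 mismatched and 24 gapped positions, which is 85.9% identity. A match would describe letters only, and its absence from these windows covers only these 250 bases.

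Depth was similar across the libraries. In units of 1000000, summed estimated counts ran from 10.4 to 20.4 in the diet experiment (median 11.7) and from 9.41 to 20.6 in the panel (median 12.3). Levels of one gene across mice are given as counts per 1000000 (CPM) after TMM scaling, and levels of different genes are compared only in TPM, the deposited unit that also corrects for transcript length.

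Per unit of length, Selenbp2 was the most abundant of the 6 on chow (mean 373 TPM), above Elovl3 (235), Cyp4a12a (166), Slco1a1 (141.01), Cyp7b1 (74.7) and Hsd3b5 (66.2). With 2% iron and cellulose, Slco1a1 (14.3 TPM) and Selenbp2 (12.4) were the highest and Hsd3b5 the lowest (0.271).

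All 6 genes had their lowest levels in the mice on 2% iron with cellulose and their next lowest in those on 2% iron, with no mouse of one group overlapping the other. Of all 13560 genes tested, 9.34% had every cellulose mouse below every 2% iron mouse. Every 2% iron mouse was also below every 500 ppm mouse for every one of the 6, as was the case for 13.9% of all genes tested. The levels on chow, 50 ppm and 500 ppm overlapped, except that the chow mice were above all others for Selenbp2 and above the 500 ppm mice for Cyp7b1. Mean levels on 2% iron were 2.43-fold (Selenbp2) to 15.3-fold (Cyp4a12a) lower than on 50 ppm iron.

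Hsd3b5 was measured at 99.6, 87.3 and 103 CPM in the 3 chow mice, 164, 51.6 and 78.9 CPM on 50 ppm iron and 56.5, 83.996 and 124 CPM on 500 ppm iron. On 2% iron it was at 12.9, 28.002 and 9.39 CPM, and on 2% iron with cellulose at 0.242, 0 and 0.770 CPM. The first 3 diets overlapped, the 2% iron mice were all below them, and the cellulose mice rested on 3, 0 and 10 counts. In the library with 0 counts, 3 counts would have been 0.279 CPM. The mean on 2% iron was 16.8 ± 9.89 CPM (SD, n = 3) against 98.1 ± 58.5 on 50 ppm, 5.85-fold lower, with a fitted log2 change of -2.55 (SE 0.47). This was -3.13 without 2% iron replicate 2 and -1.97 without 50 ppm replicate 1. The cellulose mean, 0.337 ± 0.394 CPM, was a further 49.7-fold lower than that of 2% iron. With so few counts the fitted log2 change of that step, -5.53 (SE 0.78), moved to -6.94 without cellulose replicate 3, and was -3.31 on the log2(TPM + 1) scale.

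Cyp7b1, which like Hsd3b5 acts on steroids, was at 194, 162 and 121 CPM on chow, 184, 44.5 and 38.7 CPM on 50 ppm and 47.1, 52.9 and 118 CPM on 500 ppm. It was at 24.5, 30.6 and 24.3 CPM on 2% iron and at 10.1, 12.2 and 12.01 CPM with cellulose. A single 50 ppm mouse stood at the chow level, the other two were near the lower 500 ppm mice, and both 2% iron groups were below all of these. The mean on 2% iron, 26.5 ± 3.55 CPM, was 3.37-fold lower than on 50 ppm (89.2 ± 82.5), a fitted log2 change of -1.75 (SE 0.51). Without the high 50 ppm mouse (replicate 1) that log2 change was -0.65. With cellulose the mean was a further 2.32-fold lower, at 11.4 ± 1.17 CPM.

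Cyp4a12a, the fatty acid hydroxylase, was at 427, 411 and 363 CPM on chow, 553, 267 and 253 CPM on 50 ppm and 220.4, 149.6 and 409.6 CPM on 500 ppm. It was at 17.7, 24.3 and 28.2 CPM on 2% iron and at 4.35, 2.56 and 1.39 CPM with cellulose. Here the step between 500 ppm and 2% iron left a gap between 149.6 and 28.2 CPM with no mouse in it. The mean on 2% iron (23.4 ± 5.31 CPM) was 15.3-fold below that on 50 ppm (357.9 ± 169), with a fitted log2 change of -3.93 (SE 0.42), and the cellulose mean (2.76 ± 1.49) was 8.47-fold below that on 2% iron.

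Elovl3, the elongase, was at 459, 379 and 155.7 CPM on chow, 389, 245 and 199 CPM on 50 ppm and 253, 230.5 and 519 CPM on 500 ppm. It was at 11.8, 47.1 and 15.9 CPM on 2% iron and at 1.69, 2.47 and 5.39 CPM with cellulose. The lowest mouse of the first 3 diets was a chow mouse at 155.7 CPM, which is above the highest 2% iron mouse. The mean was 24.9 ± 19.3 CPM on 2% iron and 278 ± 99.2 on 50 ppm, 11.1-fold lower, with a fitted log2 change of -3.48 (SE 0.58), which was -4.33 without 2% iron replicate 2. It was 3.18 ± 1.95 CPM with cellulose, a further 7.84-fold lower. The fitted log2 change of that step was -2.95 (SE 0.64), and -2.11 without 2% iron replicate 2.

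Slco1a1, the transporter, had the smallest spread within diets when the 5 diets were pooled (SD of log2 CPM 0.392). It was not the least variable gene on 500 ppm, on 2% iron or with cellulose. It was at 518, 468.97 and 551 CPM on chow, 678, 450.4 and 538 CPM on 50 ppm and 447.8, 314 and 621 CPM on 500 ppm. On 2% iron it was at 167, 273 and 170.3 CPM, and with cellulose at 64.1, 33.3 and 35.6 CPM. The 2% iron mice were all below the first 3 diets and the cellulose mice all below them, and no library came near 0. The mean fell from 556 ± 115.04 CPM on 50 ppm to 203 ± 60.01 on 2% iron, 2.73-fold, with a fitted log2 change of -1.45 (SE 0.29), and to 44.3 ± 17.1 with cellulose.

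Selenbp2 differed from the other five in its chow level. It was at 840.0, 643 and 335 CPM on chow, 322.3, 40.5 and 41.7 CPM on 50 ppm and 77.0, 105 and 109.9 CPM on 500 ppm. It was at 58.8, 71.2 and 36.6 CPM on 2% iron and at 15.4, 15.1 and 18.3 CPM with cellulose. Every chow mouse was above every mouse on the other diets, and the 2% iron mice overlapped the 50 ppm mice. Its mean was 606 ± 255 CPM on chow and 135 ± 162 on 50 ppm, a log2 difference of 2.17 (SE 0.64), which was 3.88 without 50 ppm replicate 1. From 50 ppm to 2% iron (55.5 ± 17.5 CPM) the fitted log2 change was -1.28 (SE 0.63), and without the 322.3 CPM mouse it was 0.43. Against 2% iron, the cellulose mean (16.2 ± 1.75 CPM) was 3.42-fold lower.

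**Figure D1:**
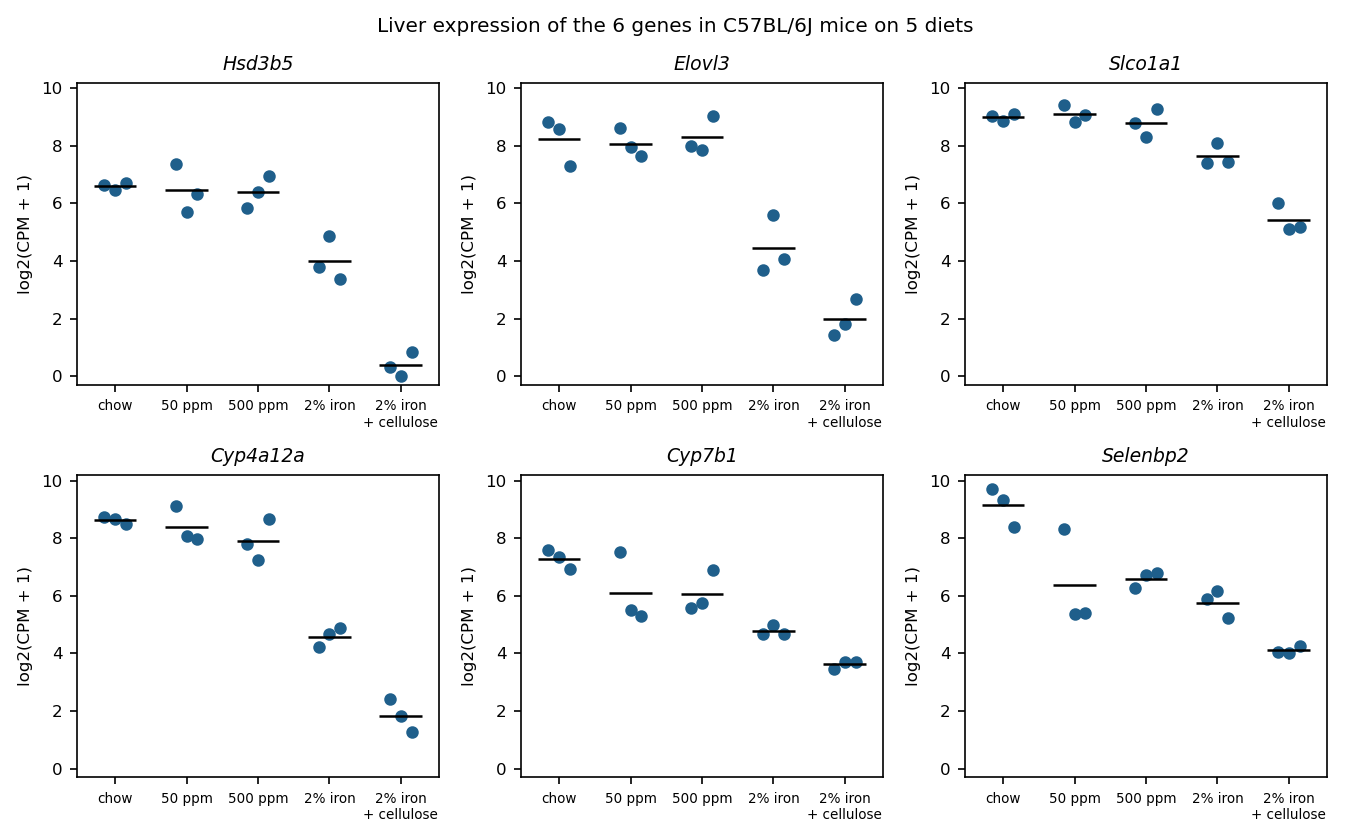
Level of each of the 6 genes in each of the 15 mice of the diet experiment, as log2(CPM + 1) on the y axis, by diet on the x axis. Points are mice and short lines are group means of the log values. For every gene the 3 mice on 2% iron lie above the 3 on 2% iron with cellulose and below the 3 on 500 ppm iron.

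The mouse with the highest level was compared across the 6 genes in each diet. On 50 ppm iron the same mouse (replicate 1) was the highest for 6 of 6 genes, and on 500 ppm iron replicate 3 was the highest for 6 of 6. On 2% iron replicate 2 was the highest for 5 of 6, with Cyp4a12a the exception. On chow replicate 1 was the highest for 4 and replicate 3 for 2, and with cellulose the highest mouse was replicate 3 for 3 genes, replicate 1 for 2 and replicate 2 for 1. The high 50 ppm mouse raises the reference level of the whole set, which is why Cyp7b1 and Selenbp2 are given with and without it.

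Between 50 and 500 ppm iron the fitted log2 changes of the 6 genes ran from -0.47 (Selenbp2) to 0.27 (Elovl3), none larger than its standard error except Cyp4a12a at -0.46 (SE 0.37). Without 50 ppm replicate 1 they turned from -0.15 to 0.44 for Hsd3b5, from -0.29 to 0.81 for Cyp7b1 and from -0.47 to 1.25 for Selenbp2. In that comparison edgeR called 0 of 13560 genes (0%) at an adjusted p under 0.05, 428 had an unadjusted p under 0.05, and DESeq2 called 2. Between 50 ppm and 2% iron, 15.7% of the 13560 genes were called, 7.17% as lower, and 5 of the 6 genes were among the lower ones, a count from which nothing is read because the genes were chosen by it. The median log2 change of the 6 was -2.15, against 0.01 over all genes tested. The calls over all genes split into 1155 higher and 972 lower, and with limma on log2(TPM + 1) into 804 and 404. Their number, 2127, was 1003 without 50 ppm replicate 1, 1267 without 2% iron replicate 3 and 1370 without 2% iron replicate 1.

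Against 500 ppm iron, 4 of the 6 were called lower on 2% iron (4.75% of all genes were), with a median of -1.93. Against chow the count was 6 of 6 (10.9% of all genes), with a median of -3.02. The cellulose diet against 2% iron gave 3 of 6 (0.0737% of all genes, 10 in number), with a median of -2.57. That comparison had 0 calls over all genes without cellulose replicate 2 and 212 without cellulose replicate 3. With all mice, 0.0811% of genes were called in either direction, and DESeq2 called 219 in all. The cellulose diet against 50 ppm gave 6 of 6 (14.3%), with a median of -5.04. Chow against 50 ppm called 0 of 6 lower (0.125%), with a median of 0.21. The 6 genes were chosen because earlier results of these data showed them low in iron-loaded livers, so nothing is read from these counts. These comparisons also share mice, so their counts are not separate pieces of evidence. With 3 mice against 3, an exact permutation test of a single gene cannot give a two-sided p under 0.1.

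**Figure D2:**
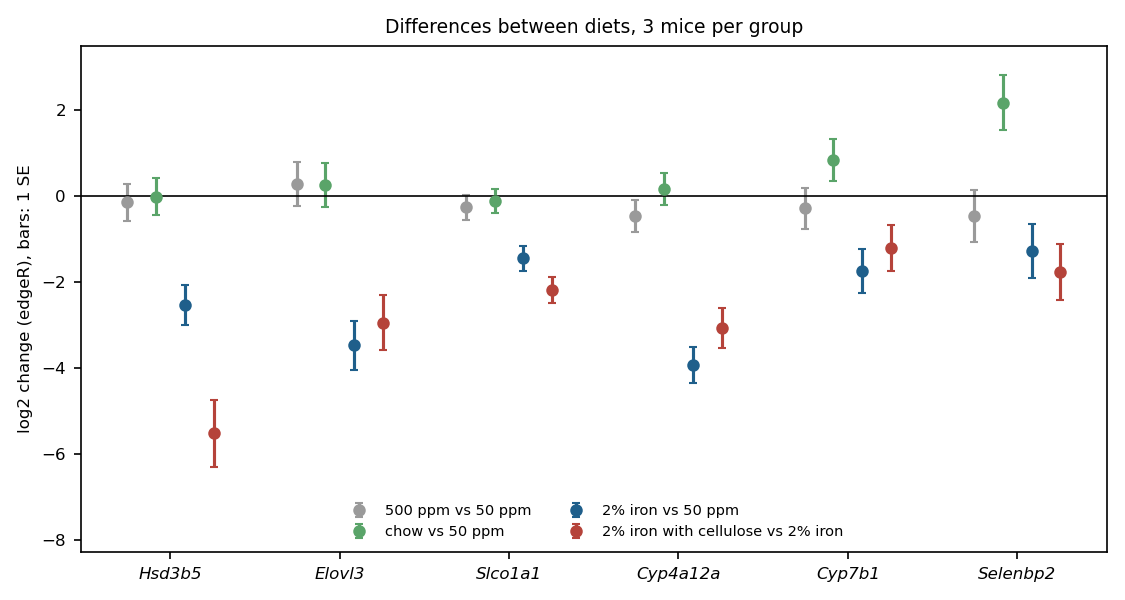
Fitted log2 change of each of the 6 genes on the y axis in 4 diet comparisons, by gene on the x axis, with bars of 1 standard error. The changes between 50 and 500 ppm iron lie between -0.47 and 0.27. Those of 2% iron against 50 ppm and of 2% iron with cellulose against 2% iron all lie below 0. The latter run from -5.53 (Hsd3b5) to -1.21 (Cyp7b1).

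Relatives of the 6 genes did not all move with them. Of 16 tested family members, 5 were lower on 2% iron than on 50 ppm (7.17% of all genes were) and 1 was higher (8.52%). Their median log2 change was -0.41. Selenbp1, the near copy of Selenbp2, rose from 197 ± 23.1 to 339 ± 90.9 CPM (log2 change 0.78, SE 0.24, edgeR adjusted p = 0.0433), although 8 of 22 alternative settings lost this call, with adjusted p up to 0.190. Cyp4a12b, the near copy of Cyp4a12a, fell by 4.05 on the log2 scale (edgeR adjusted p = 4.89e-04). Hsd3b2 and Hsd3b3, other 3-beta-hydroxysteroid dehydrogenases, fell by 1.39 and 0.99, and Slco1b2, another sinusoidal transporter, fell by 0.84. Cyp7a1, the rate-limiting enzyme of the classic bile acid pathway, fell by 1.36 (edgeR adjusted p = 0.0319), a call that 5 of the 22 alternatives lost. The other elongases did not pass the test, with log2 changes of 1.16 for Elovl6, 0.24 for Elovl1, -0.09 for Elovl5 and -0.48 for Elovl2. Slco1a4 (0.07) and Slco1a6 (-0.09), transporters of the same subfamily as Slco1a1, did not pass either. Nor did the other fatty acid hydroxylases Cyp4a10 (-0.68), Cyp4a14 (0.11), Cyp4a31 (-0.34) and Cyp4a32 (-0.76). Between 2% iron with cellulose and 2% iron, 0 of the 16 were called, where 0.0811% of all genes were.

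Among the other listed male-biased genes, 18 of 21 tested were lower on 2% iron than on 50 ppm (7.17% of all genes were). Higher ones numbered 0 (8.52% of all genes), and the median log2 change was -1.72. The list had been put together with earlier results of these data known, so its direction is not independent evidence. The genes with the most negative changes were Mup7 (-8.29, SE 1.05), Cyp4a12b (-4.05), Mup21 (-3.83) and Mup20 (-3.58). Cyp4a12b, the near copy of Cyp4a12a, was also counted among the relatives above. The major urinary proteins, of which Mup7, Mup20 and Mup21 are members, carry pheromones, and Mup genes are near-identical copies whose single values are uncertain. Cspg5 (-1.21), Ihh (1.33) and Sult1c2 (0.97) did not pass the test. On 2% iron with cellulose, 3 of the 21 were called lower than on 2% iron (0.0737% of all genes were).

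Of 27 female-biased genes tested, 5 were higher on 2% iron (8.52% of all genes were) and 0 were lower, with a median log2 change of 1.85. Against 500 ppm 1 of the 27 was higher (6.59% of all genes) and 0 were lower, with a median of 0.22, and against chow 9 were higher (11.9%) and 2 lower, with a median of 1.81. Cyp2a4 (log2 change 6.66, edgeR adjusted p = 0.0279), Cyp2b9 (6.56, 0.0145) and Cyp2b10 (5.63, 0.00684) are cytochromes P450, Nipal1 (1.86, 0.0205) is a magnesium transporter and Fmo2 (1.79, 0.0296) a flavin-containing monooxygenase. The count ranged from 1 to 11 as single libraries were left out: it was 1 without 50 ppm replicate 1, 3 without 50 ppm replicate 2, 2 without 2% iron replicate 1 or 3, 11 without 500 ppm replicate 2 and 8 without 500 ppm replicate 3.

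The growth hormone receptor was the 1 gene called of 8 in the receptor and signalling list, where 15.7% of all genes were called. Ghr fell from 500.5 ± 60.4 CPM on 50 ppm to 283 ± 30.4 on 2% iron, a log2 change of -0.82 (SE 0.13, edgeR adjusted p = 0.00148), and was called in 22 of 22 alternatives. It was also lower than on 500 ppm (-0.56, edgeR adjusted p = 0.0132) and chow (-0.82, edgeR adjusted p = 7.27e-04). Against 500 ppm the list had 1 gene called lower and 1 higher (4.75% and 6.59% of all genes were). From 2% iron to 2% iron with cellulose the log2 change was -0.17, which did not pass the test (edgeR adjusted p = 0.615). Stat5b was at 71.0 CPM on 2% iron and 73.2 on 50 ppm (log2 change -0.04, edgeR adjusted p = 0.848). The log2 changes of Jak2 (0.05), Stat5a (-0.08), Stat3 (0.45), Egfr (-0.04) and Prlr (0.73) did not pass the test either. The median of the list was 0.00. The count in this list was 3 when only the compared groups were fitted or without chow replicate 3, and 2 with DESeq2 or without 50 ppm replicate 3 or 500 ppm replicate 2 or 3.

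Feedback inhibitors and other targets of growth hormone did not follow the 6 genes as a group. Between 2% iron and 50 ppm, 15.7% of all genes were called. Ptpn1, a phosphatase that acts on JAK2, rose by 0.45 (edgeR adjusted p = 0.00618) and was the 1 called of 5 feedback genes tested. Cish (1.14, edgeR adjusted p = 0.201), Socs2 (1.04, edgeR adjusted p = 0.325), Ptpn6 (0.22) and Socs3 (-0.26) did not pass. Of 8 other targets, the serpin Serpina3n rose (1.05, edgeR adjusted p = 0.0372) and Igfals, which encodes the acid-labile subunit of circulating IGF complexes, fell by 0.78 (edgeR adjusted p = 0.0457), calls that 8 and 13 of 22 alternatives lost. Igf1, which encodes the main circulating product of growth hormone signalling, had a log2 change of -0.01. Bcl6 (-1.55, edgeR adjusted p = 0.0506) and Cux2 (3.18, edgeR adjusted p = 0.0515) missed the threshold. Of 10 hepatocyte transcription factors, Nr3c1 rose (0.35) and Cebpa (-0.40), Foxa1 (-0.73) and Nr1i3 (-0.95) fell. All 4 calls of that list and both of the target list were lost when log2 TPM was tested with limma. The target list had 0 calls without 50 ppm replicate 1 or 3 and 4 without 500 ppm replicate 1 or 3, and the factor list had 1 without 50 ppm replicate 1 or 3 or 2% iron replicate 3.

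**Figure D3:**
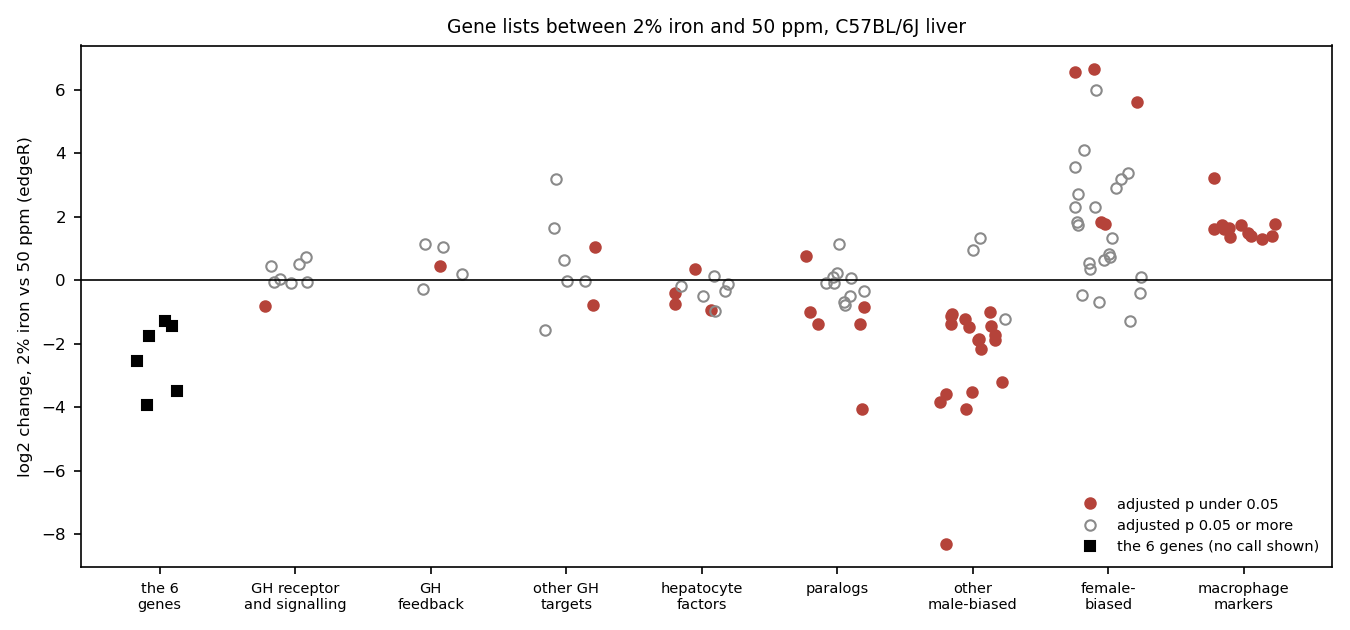
Log2 change between 2% iron and 50 ppm iron of each tested gene in the 6-gene set and in the related lists. Each point is a gene, filled where its edgeR adjusted p was under 0.05, and squares are the 6 genes, shown without a call. The points of the male-biased list lie mostly below 0 (median -1.72), and those of the growth hormone receptor and signalling list lie around 0 (median 0.00).

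Markers of other cells also differed between the diets. Over all genes, 8.52% were called higher and 7.17% lower on 2% iron than on 50 ppm. All 12 macrophage markers were higher on 2% iron than on 50 ppm (median log2 change 1.62), and their summed level was 513 to 613.2 TPM against 134 to 241 TPM. With cellulose it was 608 to 879 TPM, and 0 of the 12 were called between the 2 diets of 2% iron. Erythroid markers (5 of 6 higher, 1 lower) summed to 660.1 to 1069.8 TPM on 2% iron against 76.8 to 135 TPM on 50 ppm, and acute-phase genes (4 of 15 higher, 2 lower) to 10837 to 15080 TPM against 8644 to 10685 TPM. Endothelial markers were higher for 2 of 7. Stellate cell markers (0 of 8 called) and cholangiocyte and lymphocyte markers (0 of 4 and 0 of 5) did not pass the test. Of 8 exocrine pancreas markers, Cpa1, Ctrb1, Pnlip and Prss2 were at 0 in both groups. The 8 summed to 5.06 to 6.38 TPM on 2% iron and 7.26 to 9.79 TPM on 50 ppm, and the 1 tested was not called. The part of these other cells in the levels of the 6 genes was not tested. Of 9 hepatocyte markers, Trf was called higher on 2% iron than on 50 ppm (0.69) and Apoa1 (-0.86), Pck1 (-0.65) and Serpina1c (-0.70) lower, with a median of 0.05, and 7 and 6 of 22 alternatives lost the calls of Pck1 and Serpina1c. Their summed level was 62751 to 72271 TPM on 2% iron and 50428 to 62283 TPM on 50 ppm, and their part in the levels of the 6 genes was not tested.

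In the panel, where every mouse ate 2% iron, the 6 genes ranged from near 0 to the level of the chow mice. Hsd3b5 ran from 0 to 155 CPM over the 114 strains, with a median of 1.02 CPM. It was below 1 CPM in 56 strains and above 100 CPM in 3, the highest being BXH14/TyJ, and 13 libraries had 0 counts, where 3 counts would have been 0.195 to 0.278 CPM. The chow mice of the diet experiment, at 87.3 to 103 CPM, thus lay within the panel's range, though the 2 tables were processed separately.

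The other genes also ranged widely, and Cyp7b1, Slco1a1 and Selenbp2 were above 1 CPM in every strain. Elovl3 ran from 0 to 236 CPM (median 3.03), highest in BXD19/TyJ, and was below 1 CPM in 24 strains. Cyp4a12a ran from 0 to 514.1 CPM (median 8.95), highest in CBA/J, with 29 strains below 1 CPM and 19 above 100 CPM. Libraries with 0 counts numbered 2 for Elovl3 and 5 for Cyp4a12a, and none for the remaining genes. Slco1a1 ran from 1.53 CPM in BXD43/RwwJ to 769 in SWR/J (median 49.01), with 43 strains above 100 CPM. Cyp7b1 ran from 1.53 CPM in BXH2/TyJ to 158 in MRL/MpJ (median 11.7). Selenbp2 ran from 1.73 CPM in BTBR T<+> tf/J to 531 in DBA/2J (median 44.98). Per unit of length the panel medians were 33.1 TPM for Selenbp2, 14.7 for Slco1a1, 5.95 for Cyp7b1, 3.81 for Cyp4a12a, 2.42 for Elovl3 and 0.763 for Hsd3b5.

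**Figure D4:**
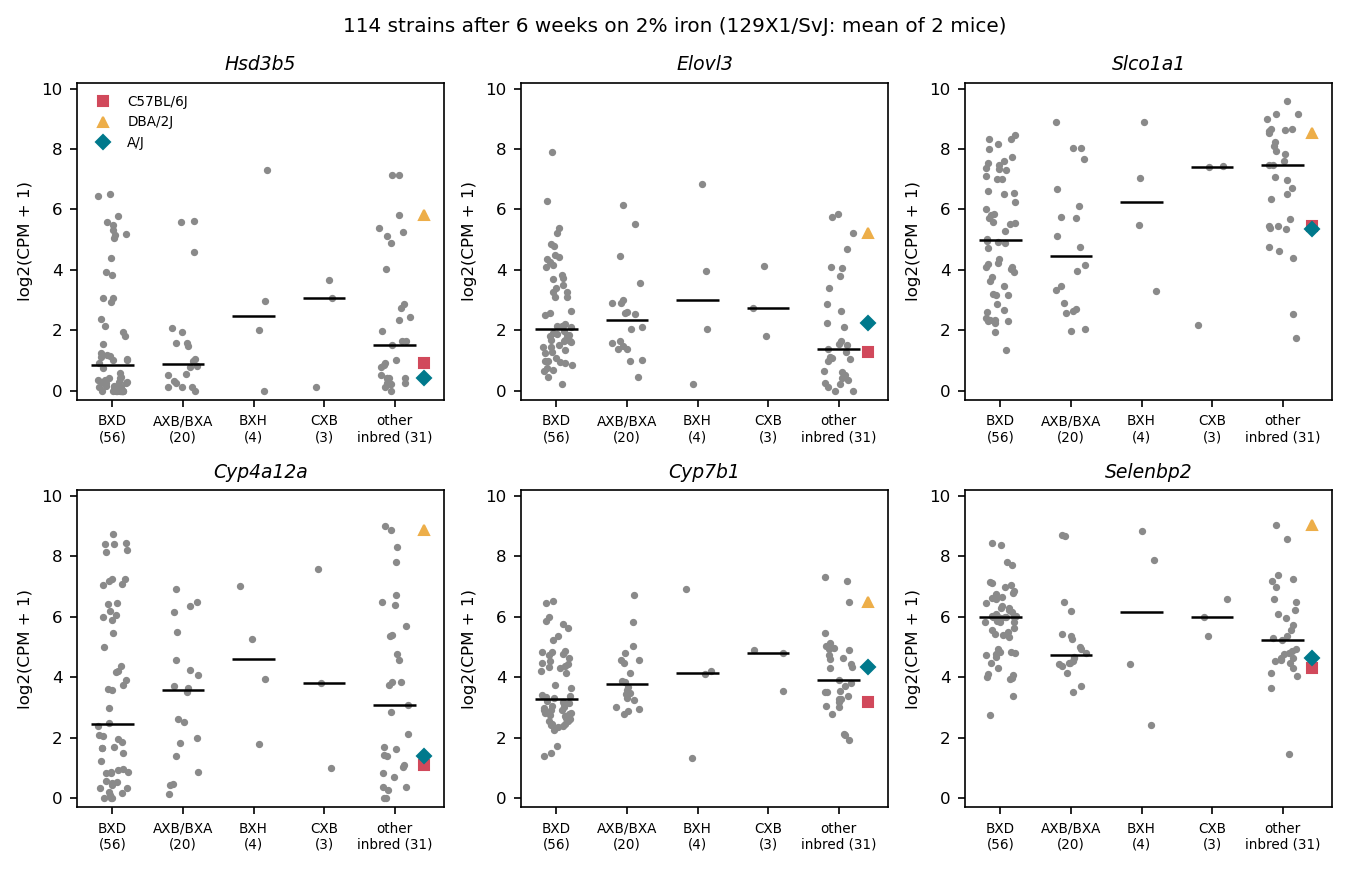
Level of each of the 6 genes in each of the 114 strains on 2% iron, as log2(CPM + 1) on the y axis, by strain family on the x axis. Each grey point is a strain, short lines are family medians, and coloured symbols are the parent strains C57BL/6J, DBA/2J and A/J. Hsd3b5 and Cyp4a12a reach from 0 counts to 155 and 514.1 CPM, and Slco1a1 is mostly lower in the BXD strains (median 30.6 CPM) than in the other inbred strains (median 176 CPM).

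Cyp4a12a and Hsd3b5 were among the genes whose levels differed most across the panel. The standard deviation of log2 CPM across strains was 3.28 for Cyp4a12a (25 of 15695 genes from the top) and 2.85 for Hsd3b5 (56), then 2.28 for Slco1a1 (133), 2.11 for Elovl3 (183), 1.43 for Selenbp2 (545) and 1.37 for Cyp7b1 (614). The median gene had 0.404. Mice of 1 strain on 1 diet also differ, so this spread was divided by that within the diet groups. The ratio was 5.82 for Slco1a1, 5.69 for Cyp4a12a, 3.52 for Hsd3b5, 2.69 for Elovl3, 2.04 for Cyp7b1 and 1.65 for Selenbp2, against a median of 1.65 over all genes. Selenbp2 thus varied across the panel, relative to its spread within C57BL/6J groups, no more than the median gene did. That spread includes the 50 ppm mouse at 322.3 CPM, where the others of its group were at 40.5 and 41.7 CPM. The ratio without it was not computed.

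The single pair of mice of 1 strain shows how far mice alone can differ. In the 2 mice of 129X1/SvJ, Hsd3b5 was at 6.42 and 24.02 CPM, Elovl3 at 5.62 and 107 CPM, and Slco1a1 at 67.7 and 321 CPM. Cyp4a12a was at 6.02 and 162 CPM, Cyp7b1 at 14.4 and 43.1 CPM, and Selenbp2 at 8.27 and 15.01 CPM. The same mouse was higher for all 6 genes, by 1.81-fold (Selenbp2) to 26.9-fold (Cyp4a12a). A level in a strain with 1 mouse therefore cannot be assigned to the strain rather than to the mouse.

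C57BL/6J, the strain of the diet experiment, is represented by 1 mouse in the panel. It had 0.620 TPM of Hsd3b5, 1.03 of Elovl3, 12.2 of Slco1a1, 0.473 of Cyp4a12a, 3.96 of Cyp7b1 and 13.3 of Selenbp2. Each value was below the lowest of the 3 mice on 2% iron in the diet experiment, where Hsd3b5 was at 6.70 to 21.8 TPM and Slco1a1 at 48.98 to 85.7 TPM. For Slco1a1 and Selenbp2 it lay within the range of the cellulose mice (10.19 to 20.9 and 10.3 to 13.6 TPM), and the same held for Hsd3b5 (0 to 0.635 TPM). For Elovl3, Cyp4a12a and Cyp7b1 it lay below the lowest cellulose mouse, at 1.40, 0.677 and 5.48 TPM. The tables were normalized separately, and this difference was not tested.

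DBA/2J was among the strains with the highest levels. It had 54.9 CPM of Hsd3b5, 36.2 of Elovl3, 367 of Slco1a1, 465 of Cyp4a12a, 88.4 of Cyp7b1 and 531 of Selenbp2, and was the 1 strain among the highest 11 for all 6 genes. AXB10/PgnJ and BXH14/TyJ were there for 5 of 6. At the other end, BTBR T<+> tf/J was among the lowest 11 for 5 genes and BALB/cJ for 4. Of the 56 BXD strains, which carry mixed segments of C57BL/6J and DBA/2J, most lay between the 2 parents for Selenbp2 (49), Elovl3 (40) and Cyp4a12a (38). For Hsd3b5 28 and for Slco1a1 30 lay below the C57BL/6J mouse, and 2 and 0 above DBA/2J. A/J had 0.347 CPM of Hsd3b5, 39.4 of Slco1a1 and 1.65 of Cyp4a12a, near the values of C57BL/6J (0.877, 42.95 and 1.14). Even so, 10, 8 and 16 of the 20 AXB/BXA strains were above both parents for these 3 genes. AXB10/PgnJ reached 48.5 CPM of Hsd3b5, 473 of Slco1a1 and 119 of Cyp4a12a.

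Of the 6 genes, Slco1a1 was the only one called between strain families. Its mean was 76.6 CPM in the 56 BXD strains (median 30.6) and 219.7 CPM in the 31 other inbred strains (median 176), a log2 difference of -1.52 (SE 0.41, edgeR adjusted p = 0.00442). The direction and call were kept in all 7 alternatives run, with log2 differences from -1.83 to -1.49 and adjusted p from 0.00177 to 0.00528. This was 1 call among 18 tests of the 6 genes in 3 comparisons of families, beside 19.1% of all 14153 genes called between these 2 families (11.3% as lower in BXD). Of all genes, 8.45% were called between BXD and AXB/BXA and 18% between AXB/BXA and the other inbred strains. The 6 genes were thus not called between families more often than genes at large. The AXB/BXA strains (median 21.5 CPM) differed from the other inbred strains by -1.45 for Slco1a1, which missed the threshold (edgeR adjusted p = 0.0600). It passed with DESeq2 (adjusted p = 0.0266) and with limma on log2(TPM + 1) (-1.91, adjusted p = 0.0114). Strains of a family share ancestors, so the 56 BXD strains are not 56 independent genomes. The other inbred strains include the parents C57BL/6J, DBA/2J and A/J.

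Across the 114 strains the 6 genes were high and low together. All 15 pairs were correlated on the log2 CPM scale, with Pearson r from 0.315 to 0.873 and a median of 0.690, each with an adjusted permutation p under 0.05 over 111 relations. The strongest pair was Hsd3b5 with Cyp7b1, the pair that acts on steroids (r = 0.873, Spearman rho = 0.873, permutation p = 1e-05 and adjusted p = 3.2e-05, the raw value being the smallest that 100000 resamples can give). Without the 2 strains farthest from the median of Hsd3b5, BXH14/TyJ and CBA/J, r was 0.859, and over the 15 pairs with 2 such strains left out it ran from 0.347 to 0.859. The weakest was Slco1a1 with Selenbp2 (r = 0.315, rho = 0.307, adjusted permutation p = 0.0014). The 10 pairs without Selenbp2 had r from 0.561 to 0.873, and the 5 pairs with it from 0.315 to 0.496. Among 12049 genes ordered by r with each of the other members, Selenbp2 ranked from 397 (Elovl3) to 1111 (Cyp4a12a). The other members ranked from 1 to 182 for one another. These genes were grouped because they moved together with diet in the same study, so their correlation is not independent evidence that they belong together.

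**Figure D5:**
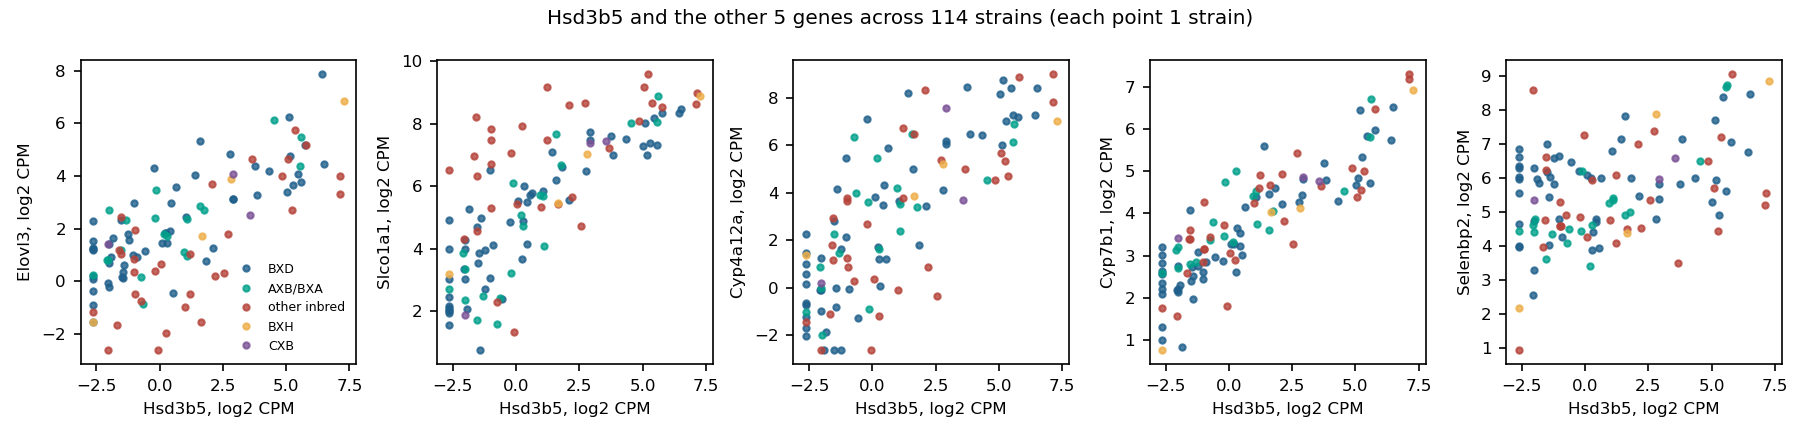
Log2 CPM of Hsd3b5 on the x axis against that of each of the other 5 genes on the y axis in 114 strains on 2% iron, 1 point per strain, coloured by family. Cyp7b1 follows Hsd3b5 most closely (r = 0.873), and Selenbp2 is spread more widely around it.

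The same pairs were then correlated within families. In the 56 BXD strains all 15 pairs passed (r from 0.342 to 0.895), and in the 20 AXB/BXA strains 11 of 15 passed (0.269 to 0.873). In the 31 other inbred strains 10 of 15 passed, which were the pairs without Selenbp2 (0.533 to 0.864), while pairs with Selenbp2 had r from -0.007 to 0.267. Differences of r between families were not tested. The correlation of each of the 6 with the library total ran from -0.008 (Slco1a1) to 0.248 (Elovl3).

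Genes around the growth hormone pathway were then set against the 6 across the strains. The share of all genes with r as far from 0 was not computed, so these counts have no background beside them. For scale, Selenbp2 at r = 0.343 with Cyp4a12a ranked 1111 of 12049 genes. Ghr was positively correlated with 6 of 6 (r from 0.314 to 0.643), and so was the male-biased Mup20 (0.402 to 0.789). Cux2, the repressor found more in female liver, was negatively correlated with 6 of 6 (-0.653 to -0.396), and so was Socs2 (-0.479 to -0.301). Bcl6 was positively correlated with 5 of 6 (0.084 to 0.353, Selenbp2 the exception). Stat5b passed for 2 of 6, Slco1a1 (0.332) and Elovl3 (0.313), and Cish for 2 of 6 (-0.211 to -0.078), Elovl3 and Cyp7b1, neither of which passed without the 2 farthest strains. Igf1 passed for 0 of 6 on the CPM scale and for 5 of 6 on log2(TPM + 1), where r of these 5 ran from 0.209 to 0.371.

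Genes of stress and iron handling gave a mixed result, again without a share over all genes to set beside the counts. Cdkn1a, which encodes the cell cycle inhibitor p21, was negatively correlated with 5 of 6 (-0.561 to -0.151). Lcn2, an acute-phase siderophore-binding protein, was negatively correlated with 5 of 6 (-0.427 to -0.152), and so was Hmox1, which degrades haem (-0.377 to -0.031). In each case the gene that did not pass was Slco1a1. Hamp, which encodes the iron hormone hepcidin, its inducer Bmp6 and the acute-phase gene Saa1 passed for 0 of 6. Within families Ghr passed for 6 genes in BXD, 3 in AXB/BXA and 4 in the other inbred strains, and Socs2 for 6, 0 and 1. In the same order Mup20 passed for 6, 4 and 5, Cux2 for 6, 2 and 5, and Bcl6 for 4, 0 and 2. Cdkn1a passed for 6, 0 and 4, Lcn2 for 3, 0 and 3, and Hmox1 for 4, 0 and 0. With strains centred within families, Slco1a1 passed with Lcn2 (-0.22) and with Cdkn1a (-0.22). The female-biased Cyp2b9 passed for 4 of 6 (-0.395 to -0.059) and the clock-controlled gene Dbp for 3 (0.017 to 0.319). No pooled value is given for Cyp2a4, whose strains fell into separate clusters.

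Among 12049 genes, those whose levels most resembled each of the 6 across strains are given as a description with no test. For Hsd3b5 they were Cyp7b1 (r = 0.873), Mup7 (0.820) and Mup14 (0.796). For Cyp4a12a they were Cyp4a12b (0.847), Cyp2d9 (0.828) and Mup20 (0.789), and for Cyp7b1 they were Hsd3b5 (0.873), Mup7 (0.817) and Cyp2d9 (0.807). Reads are hard to divide between the near copies Cyp4a12a and Cyp4a12b, so their r is uncertain in both experiments. Elovl3 was most like Mup3 (0.760), Mup13 (0.758) and Scp2 (0.755), Scp2 being a peroxisomal sterol carrier. Slco1a1 was most like Hsd3b5 (0.776), Susd4 (0.729) and Cyp7b1 (0.717). Selenbp2 stood apart, with Ttc39c (0.548), Elovl3 (0.496) and Cyp2d9 (0.491). The most negative partner was the same for 4 of them: Abcc4, an exporter of organic anions, at -0.728 with Hsd3b5, -0.726 with Slco1a1, -0.773 with Cyp4a12a and -0.758 with Cyp7b1. For Elovl3 it was Bcl2l11 (-0.689) and for Selenbp2 Ago2 (-0.509).

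The same description was made over the 15 mice of the diet experiment, which differ by diet. Over 11772 genes, Hsd3b5 was most like Ces3b (r = 0.981), Pcdh1 (0.976) and Mup3 (0.973), and Elovl3 was most like Mup21 (0.986), Mup19 (0.983) and Mup3 (0.980). Slco1a1 was closest to Cyp4a12a (0.974), Hsd3b5 (0.972) and Ces3a (0.964), and Cyp4a12a to Cyp4a12b (0.987), Cyp2d9 (0.982) and Mup21 (0.979). For Cyp7b1 the nearest genes were C6 (0.970), Ube2h (0.964) and Ugt2b1 (0.963), and for Selenbp2 they were Cyp7b1 (0.944), Acadsb (0.941) and Serpine2 (0.936). A Mup gene was among the nearest 3 in both experiments for Hsd3b5, Elovl3 and Cyp4a12a.

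The BXD65/RwwJ library stood apart in its sex-linked genes. Its 4 Y-linked genes summed to 3.94 CPM, against 118 CPM in the next lowest panel library and 328 in the highest, although every sample is labelled male. It had 0 CPM of Hsd3b5, 2.10 of Elovl3, 2.80 of Slco1a1, 0.263 of Cyp4a12a, 6.04 of Cyp7b1 and 15.8 of Selenbp2. Without it the Slco1a1 difference of the BXD from the other inbred strains was -1.49 (edgeR adjusted p = 0.00520).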

How the data were processed

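Liver RNA of 130 male mice was sequenced after a stranded mRNA preparation, per the labels' protocols. The submitters' processing notes name kallisto 0.46 and the mm10 genome. The authors deposited estimated counts per gene, 26.5% and 27.4% of which were not whole in the diet and panel tables, and TPM per gene. TPM in the deposited tables sums to 1000000 in the diet libraries and to between 994114 and 997301 in the panel libraries. Symbols were matched to GENCODE M21 for 34924 of 35274 and 35691 of 35711 identifiers.

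The members and the gene lists were chosen with earlier results of these data known. Estimated counts were rounded and tested with edgeR 4.0.16 (TMM factors, filterByExpr, quasi-likelihood F test, Benjamini-Hochberg adjusted p under 0.05 over all genes), with the 5 diets in one fit and 3 strain families in another. The 6 genes were described between diets, and counts of their calls were not read as a test. The text names the 17 partner genes, the receptor, signalling and feedback genes (1 of which is not reported here), every relative that passed the filter, up to 4 called genes of largest change in each other list, and the 3 genes most like each of the 6, and the 1 least like it, by r. Other genes were named after their values were seen. Alternatives used DESeq2 1.42.0, limma 3.58.1 on log2(TPM + 1) and log2(TPM + 0.1), other filters and scalings, and left out single mice. Correlations used log2 CPM (prior count 2) over 114 strains, the 2 mice of 129X1/SvJ averaged, with 100000 permutations. Of 117 relations, 6 with Cyp2a4 were dropped because its strains formed separate clusters, and 111 were adjusted together. Clusters needed Ashman's D over 3, at least 3 strains in each, and a gain over 10 in the Bayesian information criterion against 1 cluster. Cyp2a4 had D 3.25 and a gain of 43.5. Cyp4a12a (3.01 and 1.40) and Hsd3b5 (2.99 and 16.9) were not called clustered. Strains, with 1 mouse each, are the replicates. The edgeR fits were tested on simulated counts. R 4.3.3 and Python 3.11.15 were used.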

Additional observations from a re-analysis of the deposited data

How the results depend on the processing

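The 6 genes kept their lower level on 2% iron than on 50 ppm in every alternative except Selenbp2 without 50 ppm replicate 1, where the log2 change was 0.43. Leaving out single mice gave ranges of -3.13 to -1.97 for Hsd3b5, -4.33 to -3.15 for Elovl3, -1.72 to -1.28 for Slco1a1, -4.13 to -3.48 for Cyp4a12a, -2.11 to -0.65 for Cyp7b1 and -1.71 to 0.43 for Selenbp2. Between 500 and 50 ppm, Hsd3b5 turned from -0.15 to 0.44, Cyp7b1 to 0.81 and Selenbp2 to 1.25 without the same mouse (ranges -0.83 to 0.81 and -0.90 to 1.25). The cause was not tested.

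Counts of called genes moved more. With limma on log2(TPM + 1) and log2(TPM + 0.1), which also moved the all-gene median by up to 0.14 (2% iron with cellulose against 50 ppm), they were 1208 and 1161 for 2% iron against 50 ppm, 910 and 862 against 500 ppm, 1945 and 1987 against chow, 21 and 14 for chow against 50 ppm, 18 and 18 for cellulose against 2% iron, 2657 and 2546 for cellulose against 50 ppm, 664 and 689 for BXD against AXB/BXA, 1703 and 1690 for BXD and 1473 and 1457 for AXB/BXA against the other inbred strains. DESeq2 called 2 genes for 500 against 50 ppm, 144 for chow against 50 ppm and 219 for cellulose against 2% iron. Fitting the compared groups alone gave 924 for 2% iron against 500 ppm, 26 for chow against 50 ppm, 23 for cellulose against 2% iron and 1538 for AXB/BXA against the other inbred strains. For cellulose against 2% iron, no filter gave 51 and at least 10 counts in every library gave 26. Leaving out single mice gave 1003 to 2333 for 2% iron against 50 ppm, 788 to 2204 against 500 ppm, 2151 to 3320 against chow, 4 to 63 for chow against 50 ppm, 0 to 0 for 500 against 50 ppm, 0 to 212 for cellulose against 2% iron (0 without cellulose replicate 2, 212 without cellulose replicate 3) and 2708 to 4206 for cellulose against 50 ppm.

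In the lists, with single mice left out, the calls were 1 to 3 for growth hormone receptor and signalling (3 with the compared groups alone, 2 with DESeq2 and with limma on log2(TPM + 1)), 1 to 1 for feedback (0 with limma at either pseudocount), 0 to 4 for targets (5 with no filter, 0 and 0 with limma), 1 to 5 for hepatocyte factors (0 and 0 with limma), 1 to 11 for female-biased genes (2 with at least 10 counts in every library, 11 with the compared groups alone), 14 to 19 for other male-biased genes and 4 to 7 for the relatives. Across strains, r of Elovl3 with Igf1 turned from -0.006 to 0.209 on log2(TPM + 1) (adjusted permutation p = 0.0381), 12 of the 111 relations passed only under some alternative, 2 (Elovl3 and Cyp7b1 with Cish) lost their call under some, and 96 kept call and direction in each. No paired analysis was possible because the labels carry no replicate numbers, and the numbers used here follow accession order. Low counts limit Hsd3b5 in the cellulose mice and in the 56 strains below 1 CPM.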
